A study of Mus musculus with 12 samples.

Results

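Ren1, Agt, Ace, Agtr1a, Mme, Enpep, Mas1 and Atp6ap2 are genes of the renin-angiotensin system, and their mRNA levels were followed in 12 mouse kidneys by bulk RNA-seq. They were chosen by name from a count table of 55487 genes, of which 29160 had a count in at least 1 library. All 8 had enough counts to be tested in every comparison. The Ctrl group (3 libraries, labelled WT with sham surgery) was made of ALR flox/flox mice without Cre, and the PT-KO group (3 libraries, labelled ALR knockdown with sham surgery) of ALR flox/flox mice carrying Ggt1-Cre. ALR is the sulfhydryl oxidase encoded by Gfer, and both genotypes carry the floxed allele. The Ggt1 promoter directs Cre to proximal tubule cells, so other kidney cells of PT-KO mice keep the gene. The Ctrl+I/R and PT-KO+I/R groups (3 libraries each) were the same genotypes after 22 min of bilateral renal ischemia and 24 h of reperfusion. The mice were 6 to 8 weeks old on a mixed C57BL/6 background, and the tissue is labelled kidney cortex.

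The renin-angiotensin system is a chain of secreted peptides that controls blood pressure and salt balance. Renin, released by juxtaglomerular cells of the afferent arteriole, cuts angiotensinogen to angiotensin I, and angiotensin-converting enzyme turns that into angiotensin II, which acts mainly through the AT1 receptor to constrict vessels and retain sodium. Other peptidases, many of them on the brush border of the proximal tubule, trim the same peptides into shorter ones such as angiotensin III and angiotensin-(1-7), the latter a ligand of the Mas receptor. In the kidney the proximal tubule makes angiotensinogen and carries angiotensin-converting enzyme, neprilysin and aminopeptidases, so the tissue holds a local system beside the circulating one.

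Library totals ran from 12165089 to 23123693 counts. Ctrl libraries 1 and 2 came from female mice (22402 and 19755 Xist counts, 0 Y-linked counts), whereas the other 10 libraries had at most 11 Xist counts and at least 3109 Y-linked counts. Both comparisons of PT-KO+I/R, with PT-KO and with Ctrl+I/R, are thus among males, while every comparison with Ctrl sets males against a group with 2 females. Ctrl library 3 took its group from its column name, because its number matches no control title. Gfer did not fall in the libraries labelled PT-KO: it stood at 12.7, 11.4 and 14.4 CPM in Ctrl and at 9.97, 17.1 and 15.0 CPM in PT-KO (log2 fold change 0.13, edgeR adjusted p = 0.761). After injury it was 15.3, 20.0 and 17.6 CPM in Ctrl+I/R and 21.6, 22.8 and 21.6 CPM in the libraries labelled PT-KO+I/R, all 3 above Ctrl+I/R (0.32, edgeR adjusted p = 0.0723). Whole-gene counts of whole tissue are a weak check of a deletion in 1 cell type, and the genotypes below are those of the labels. All 10 markers of the proximal tubule were detected in every library, as the tissue label requires. Their summed level was 18214 to 19328 CPM in Ctrl, 17952 to 20152 CPM in PT-KO, 5736 to 11501 CPM in Ctrl+I/R and 4862 to 5708 CPM in PT-KO+I/R.

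The promoters of renin, its substrate and the peptidases Ace and Enpep are shown because each holds TATAAA, the letters of a TATA box, and they were chosen after these matches were seen. RefSeq (GRCm38.p6) gave a start for 7 of the 8 genes, all but Agtr1a. The 250 bases before the start are printed 5′ to 3′ on the strand of the gene, with capitals on TATAAA or, where the match lies on the other strand, on its complement TTTATA. They lie at chr1:133350424-133350673 (Ren1, plus strand), chr8:124569707-124569956 (Agt, minus strand), chr11:105967698-105967947 (Ace, the upstream of 2 starts, plus strand) and chr3:129332750-129332999 (Enpep, minus strand).
Ren1: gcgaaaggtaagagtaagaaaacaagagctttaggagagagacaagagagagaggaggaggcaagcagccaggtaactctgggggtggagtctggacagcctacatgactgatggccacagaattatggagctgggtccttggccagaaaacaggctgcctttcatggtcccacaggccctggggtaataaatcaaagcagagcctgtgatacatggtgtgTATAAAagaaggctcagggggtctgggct
Agt: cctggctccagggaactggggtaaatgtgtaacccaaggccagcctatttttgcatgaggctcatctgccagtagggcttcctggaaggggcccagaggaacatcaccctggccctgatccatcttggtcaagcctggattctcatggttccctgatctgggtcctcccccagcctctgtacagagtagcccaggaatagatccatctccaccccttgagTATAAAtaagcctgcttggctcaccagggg
Ace: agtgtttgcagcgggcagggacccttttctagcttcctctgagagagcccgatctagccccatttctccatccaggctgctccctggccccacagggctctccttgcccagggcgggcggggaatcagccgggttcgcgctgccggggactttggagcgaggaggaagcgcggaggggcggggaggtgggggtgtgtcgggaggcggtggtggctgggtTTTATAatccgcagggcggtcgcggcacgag
Enpep: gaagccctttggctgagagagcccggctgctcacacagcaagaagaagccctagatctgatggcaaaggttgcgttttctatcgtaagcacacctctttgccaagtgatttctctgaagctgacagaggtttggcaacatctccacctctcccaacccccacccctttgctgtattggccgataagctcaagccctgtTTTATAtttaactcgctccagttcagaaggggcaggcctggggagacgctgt
TATAAA lay 29 to 24 bases before the start in Ren1 and 30 to 25 bases before it in Agt. On the opposite strand it lay 31 to 26 bases before the start in Ace and 52 to 47 bases before it in Enpep. Read on both strands, TATAAA occurs in 12.4% of all 32851 RefSeq promoters of this length. The other letters searched were TGACG, the core of the cAMP response element (17.8% of promoters, found in Atp6ap2), AGGTCA, a half-site of nuclear receptors (14.0%, found at the downstream start of Ace), and GTTAAT, a half-site of HNF1 (6.43%, found in none). These matches are letters in a window, and no binding was measured here.

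Per exon length, the angiotensin receptors Agtr1a and Mas1 stood below the other 6 of the 8 genes in Ctrl kidneys, and those 6 were not all alike. In RPKM (counts scaled to depth and exon length, mean ± SD, n = 3), Ren1 was at 58.4 ± 7.60, Atp6ap2 at 54.6 ± 1.63, Enpep at 52.6 ± 0.747 and Ace at 42.6 ± 6.21. Mme followed at 38.9 ± 11.9, Agt at 30.4 ± 5.45, Agtr1a at 16.3 ± 0.154 and Mas1 at 0.220 ± 0.145. Neighbours in this order lay within each other's spread from Ren1 to Enpep and from Ace to Agt, while Agtr1a and Mas1 stood clearly below. In PT-KO+I/R the order was Ren1 (50.0 ± 21.9 RPKM), Atp6ap2 (49.9 ± 5.87), Enpep (23.2 ± 1.80), Ace (20.1 ± 3.36), Agt (9.80 ± 1.11), Agtr1a (7.96 ± 1.60), Mme (6.58 ± 1.23) and Mas1 (0.0443 ± 0.0101). Of these, Ren1 and Atp6ap2 overlapped, as did Enpep and Ace. Agt overlapped Agtr1a, and Agtr1a overlapped Mme.

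**Figure D1:**
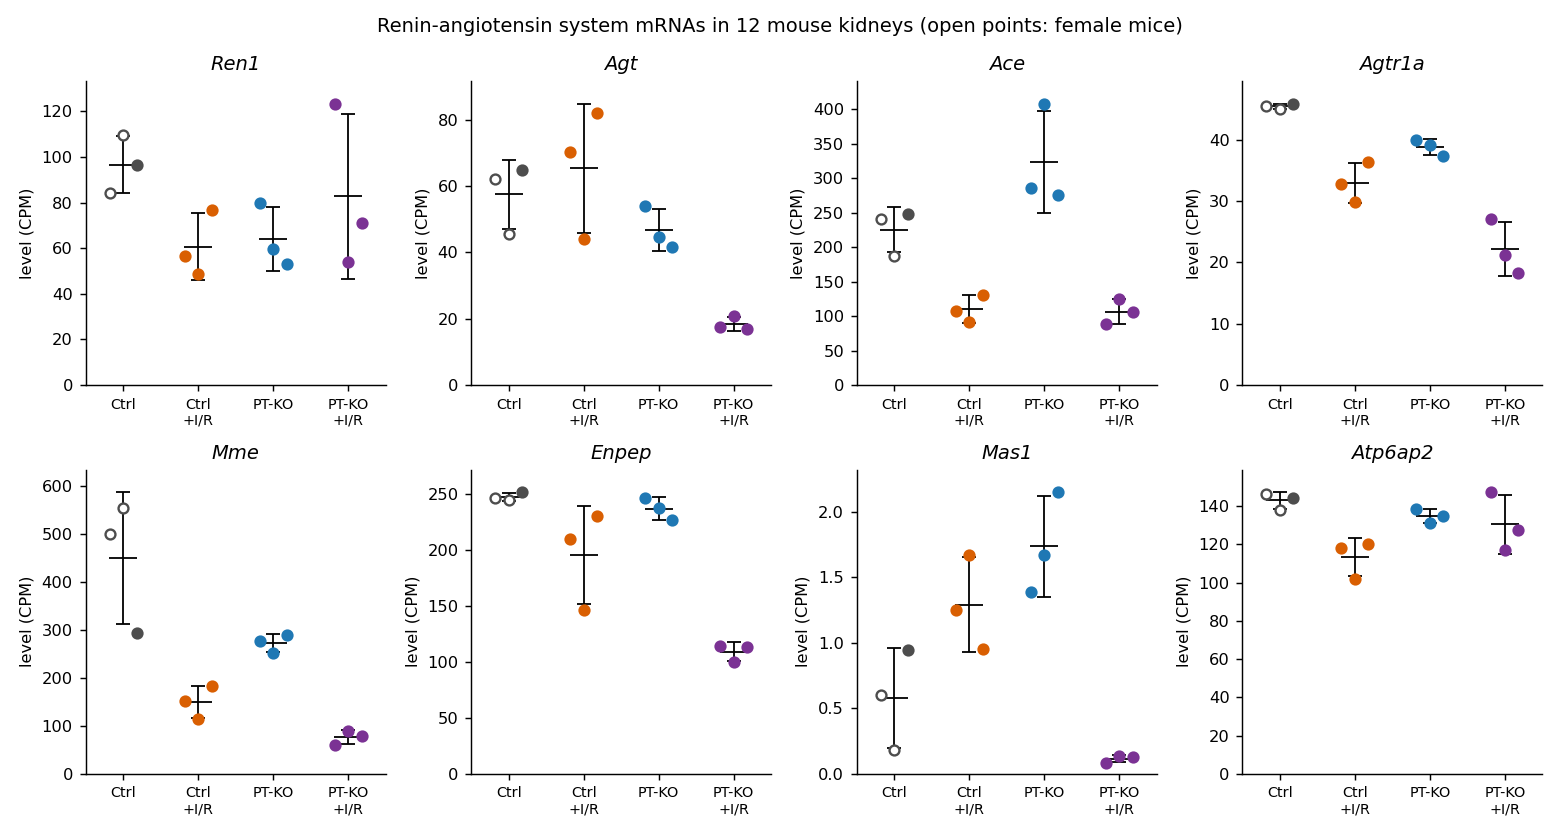
Levels of the 8 genes in each kidney, in CPM (counts scaled to depth by TMM) on linear axes that start at 0, with 3 libraries per group (points; open points are the female Ctrl kidneys) and the mean ± SD (bars). Agt is lowest in the 3 PT-KO+I/R kidneys (17.0 to 20.9 CPM), Mas1 is at 0.0856 to 0.134 CPM there, and Ren1 and Atp6ap2 overlap between PT-KO+I/R and PT-KO.

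Angiotensinogen (Agt, ENSMUSG00000031980, chr8:124556534-124569706, minus strand, build GRCm38) is the only precursor of the angiotensin peptides. Its level, in CPM (counts scaled to depth by TMM), was 62.0, 45.6 and 64.7 in Ctrl libraries 1, 2 and 3 and 53.9, 44.7 and 41.7 in PT-KO libraries 1, 2 and 4. After I/R it was 70.1, 44.0 and 82.0 CPM in Ctrl+I/R libraries 1, 2 and 4 but 17.6, 20.9 and 17.0 CPM in PT-KO+I/R libraries 2, 3 and 4. All 3 PT-KO+I/R kidneys thus lay below every other kidney, and the other 3 groups overlapped. Agt fell 2.53-fold in PT-KO+I/R compared with PT-KO (log2 fold change -1.34 with SE 0.13, edgeR adjusted p = 1.14e-05) and was 3.54-fold lower than in Ctrl+I/R (-1.82, SE 0.23, edgeR adjusted p = 8.04e-04). In controls, injury gave a log2 difference of 0.19 (SE 0.24, edgeR adjusted p = 0.589), which was -0.0018 without Ctrl+I/R library 4. Fewer cells of a type and less RNA per cell cannot be told apart in whole tissue, and this holds for every gene below. Summed proximal tubule markers were also lowest in PT-KO+I/R, and their part in the fall of Agt was not tested.

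Renin (Ren1, ENSMUSG00000070645, chr1:133350510-133360325, plus strand) is the enzyme that cuts angiotensinogen. Ren1 stood at 84.3, 109.5 and 96.3 CPM in Ctrl, at 56.6, 48.6 and 76.8 CPM in Ctrl+I/R, at 79.7, 59.6 and 53.1 CPM in PT-KO, and in PT-KO+I/R it spread over 123.5, 53.8 and 71.1 CPM. The 3 Ctrl kidneys exceeded all those of Ctrl+I/R and of PT-KO, and PT-KO+I/R overlapped every other group. Ren1 was 1.59-fold lower in Ctrl+I/R than in Ctrl (log2 fold change -0.67, SE 0.19, edgeR adjusted p = 0.0458). That call was lost when any library but Ctrl+I/R 4 was left out, and also with sex in the model (-0.67, edgeR adjusted p = 0.256). PT-KO differed from Ctrl by -0.60 (SE 0.16, edgeR adjusted p = 0.206). Injured and sham PT-KO kidneys differed by 0.35 (SE 0.26, 95% interval -0.24 to 0.94, edgeR adjusted p = 0.265), and by -0.037 without PT-KO+I/R library 2. Some mouse strains carry another renin gene of near-identical sequence, and its reads could not be told apart from those of Ren1.

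Atp6ap2 (ENSMUSG00000031007, chrX:12587801-12617049, plus strand) encodes the (pro)renin receptor, which is also an accessory subunit of the vacuolar proton pump. Its level was 146.6, 138.3 and 144.3 CPM in Ctrl, 117.9, 102.1 and 120.4 CPM in Ctrl+I/R, 138.4, 131.3 and 135.1 CPM in PT-KO and 147.3, 117.1 and 127.5 CPM in PT-KO+I/R. Atp6ap2 passed the test in none of the comparisons. The log2 difference was -0.33 (SE 0.11, edgeR adjusted p = 0.0735) between Ctrl+I/R and Ctrl and 0.19 (SE 0.12, edgeR adjusted p = 0.226) between the injured genotypes. It was -0.055 (95% interval -0.27 to 0.16, edgeR adjusted p = 0.636) between injured and sham PT-KO kidneys, and 0.028 without PT-KO+I/R library 3.

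Angiotensin-converting enzyme (Ace, ENSMUSG00000020681, chr11:105967945-105989964, plus strand) sits on vascular endothelium and on the proximal tubule brush border. Ace was at 240.7, 187.8 and 247.8 CPM in Ctrl and at 286.0, 408.2 and 275.4 CPM in PT-KO, so all PT-KO kidneys were above all Ctrl kidneys. After I/R it was at 107.5, 91.1 and 131.1 CPM in Ctrl+I/R and at 89.0, 124.5 and 106.1 CPM in PT-KO+I/R, where the genotypes overlapped. Ace fell 2.04-fold with injury in controls (log2 fold change -1.03, SE 0.18, edgeR adjusted p = 0.0138) compared with 3.04-fold in PT-KO (-1.60, SE 0.17, edgeR adjusted p = 1.97e-05). With sex in the model the control fall was -1.17 (edgeR adjusted p = 0.0175), a value that sets Ctrl+I/R against 1 male control, and the call was lost without Ctrl library 1 or Ctrl+I/R library 1. Between the injured genotypes the difference was -0.051 (95% interval -0.45 to 0.35, edgeR adjusted p = 0.829), with a positive sign without Ctrl+I/R library 4 (0.093) or PT-KO+I/R library 2 (0.077). PT-KO versus Ctrl gave 0.52 (SE 0.17, edgeR adjusted p = 0.231). Summed markers of endothelium were at 339 to 398 CPM in Ctrl, 333 to 372 CPM in Ctrl+I/R, 337 to 361 CPM in PT-KO and 392 to 403 CPM in PT-KO+I/R, with all 7 markers detected throughout. Of the 7, 3 were called higher (Pecam1, Cdh5 and Emcn) and 2 lower (Tek and Tie1) in PT-KO+I/R versus PT-KO, near the 65.5% of all tested genes called there. An antisense gene, Gm11651, shares 295 exon bases with Ace but had 0 to 12 counts per library.

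Neprilysin (Mme, ENSMUSG00000027820, chr3:63241537-63386030, plus strand) is a brush-border endopeptidase that turns angiotensin I into angiotensin-(1-7) and also degrades natriuretic peptides. Its level spread widely within Ctrl, with 500.3 and 553.4 CPM in the female libraries 1 and 2 and 293.6 CPM in the male library 3. PT-KO kidneys, all male, had 276.5, 251.5 and 289.2 CPM, just under the male control. Injury left 150.9, 114.8 and 182.0 CPM in Ctrl+I/R and 60.5, 88.5 and 78.8 CPM in PT-KO+I/R, and these groups did not overlap. Mme fell 3.60-fold in PT-KO+I/R compared with PT-KO (log2 fold change -1.85 with SE 0.14, edgeR adjusted p = 1.85e-06) and was 1.97-fold lower than in Ctrl+I/R (-0.98, SE 0.20, edgeR adjusted p = 0.00581). In controls it fell 2.99-fold (-1.58, SE 0.27, edgeR adjusted p = 0.0139). With sex in the model, again against 1 male control, that fall was -0.98 (edgeR adjusted p = 0.0220), and the call was lost without Ctrl library 1 or 2 or Ctrl+I/R library 1. The log2 difference between PT-KO and Ctrl was -0.72 (SE 0.22, edgeR adjusted p = 0.210), and -0.11 with sex in the model (edgeR adjusted p = 1). Without Ctrl library 3, which leaves 2 female controls against 3 male PT-KO kidneys, it was -0.95 (edgeR adjusted p = 4.88e-04).

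Glutamyl aminopeptidase (Enpep, ENSMUSG00000028024, chr3:129269175-129332720, minus strand) turns angiotensin II into angiotensin III. Enpep lay within a narrow range in the sham groups, at 246.6, 244.7 and 251.5 CPM in Ctrl and 246.5, 237.5 and 226.5 CPM in PT-KO (log2 difference -0.066, 95% interval -0.25 to 0.12, edgeR adjusted p = 0.695). It was at 209.4, 146.0 and 230.6 CPM in Ctrl+I/R and at 114.5, 99.4 and 113.6 CPM in PT-KO+I/R, below every other kidney. Enpep fell 2.18-fold in PT-KO+I/R compared with PT-KO (log2 fold change -1.13 with SE 0.09, edgeR adjusted p = 3.14e-06) and was 1.80-fold lower than in Ctrl+I/R (-0.85, SE 0.18, edgeR adjusted p = 0.00633). Ctrl+I/R differed from Ctrl by -0.33 (SE 0.18, edgeR adjusted p = 0.211).

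The AT1a receptor (Agtr1a, ENSMUSG00000049115, chr13:30336441-30382867, plus strand) is the main receptor of angiotensin II in mice. Its spread was small, at 45.4, 45.0 and 45.9 CPM in Ctrl and 39.9, 39.2 and 37.3 CPM in PT-KO. Injury groups were lower, at 32.7, 29.8 and 36.3 CPM in Ctrl+I/R and 27.0, 21.2 and 18.3 CPM in PT-KO+I/R. No 2 groups overlapped, and the order was Ctrl, PT-KO, Ctrl+I/R and PT-KO+I/R. Agtr1a fell 1.77-fold in PT-KO+I/R compared with PT-KO (log2 fold change -0.82, SE 0.14, edgeR adjusted p = 4.17e-04). It was lower than in Ctrl+I/R as well (log2 fold change -0.58, SE 0.16, edgeR adjusted p = 0.0193), which did not pass in 4 of the 6 fits that left out 1 library (those without Ctrl+I/R library 1 or 4 or PT-KO+I/R library 3 or 4). Ctrl+I/R was 1.37-fold below Ctrl (-0.46, SE 0.11, edgeR adjusted p = 0.0278), a call that held without Ctrl+I/R library 4 but was lost when any other library was left out and with sex in the model (-0.48, edgeR adjusted p = 0.0909). PT-KO versus Ctrl gave -0.23 (SE 0.07, edgeR adjusted p = 0.218).

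Mas1 (ENSMUSG00000068037, chr17:12841079-12868143, minus strand) encodes the receptor of angiotensin-(1-7) and was the least abundant of the 8. Raw counts were 12, 3 and 17 in Ctrl and 22, 31 and 35 in PT-KO, and after I/R 28, 32 and 15 in controls but 1, 3 and 2 in PT-KO. In CPM this was 0.603, 0.184 and 0.942 in Ctrl, 1.39, 1.67 and 2.15 in PT-KO, 1.25, 1.67 and 0.949 in Ctrl+I/R, but 0.134 or less in PT-KO+I/R. Every PT-KO+I/R kidney was thus at or below 3 counts, which is 0.134 to 0.257 CPM at the depth of these libraries. Summed over libraries and scaled to depth, Mas1 was 14.4-fold lower in PT-KO+I/R than in PT-KO (6 against 88 counts, 95% exact Clopper-Pearson interval 6.34 to 40.2, counting error only). Versus Ctrl+I/R the ratio was 10.8 (6 against 75 counts, interval 4.75 to 30.4). The test across all genes called both (log2 fold change -3.78, edgeR adjusted p = 4.86e-05, and -3.36, edgeR adjusted p = 0.00121), with a size that depends on the prior count. Mas1 passed the low-count filter only through the groups where it was higher, so these calls are a description and no independent support. Ctrl+I/R differed from Ctrl by 1.15 (SE 0.52, edgeR adjusted p = 0.152) and PT-KO from Ctrl by 1.56 (SE 0.48, edgeR adjusted p = 0.212), with 0.88 in the model with sex. The latter passed without Ctrl library 3 (2.07, edgeR adjusted p = 0.0316). Mas1 lies within the span of Airn, a long RNA of the opposite strand with which it shares 0 exon bases. Airn was at 7.09, 5.51 and 10.9 CPM in Ctrl, 5.72, 2.82 and 6.45 CPM in Ctrl+I/R, 8.58, 8.45 and 9.39 CPM in PT-KO and 1.88, 2.49 and 2.00 CPM in PT-KO+I/R. It was thus lowest in the same kidneys, and its part in the Mas1 counts was not tested, since the strand setting of the counting is not given in the sources used here.

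**Figure D2:**
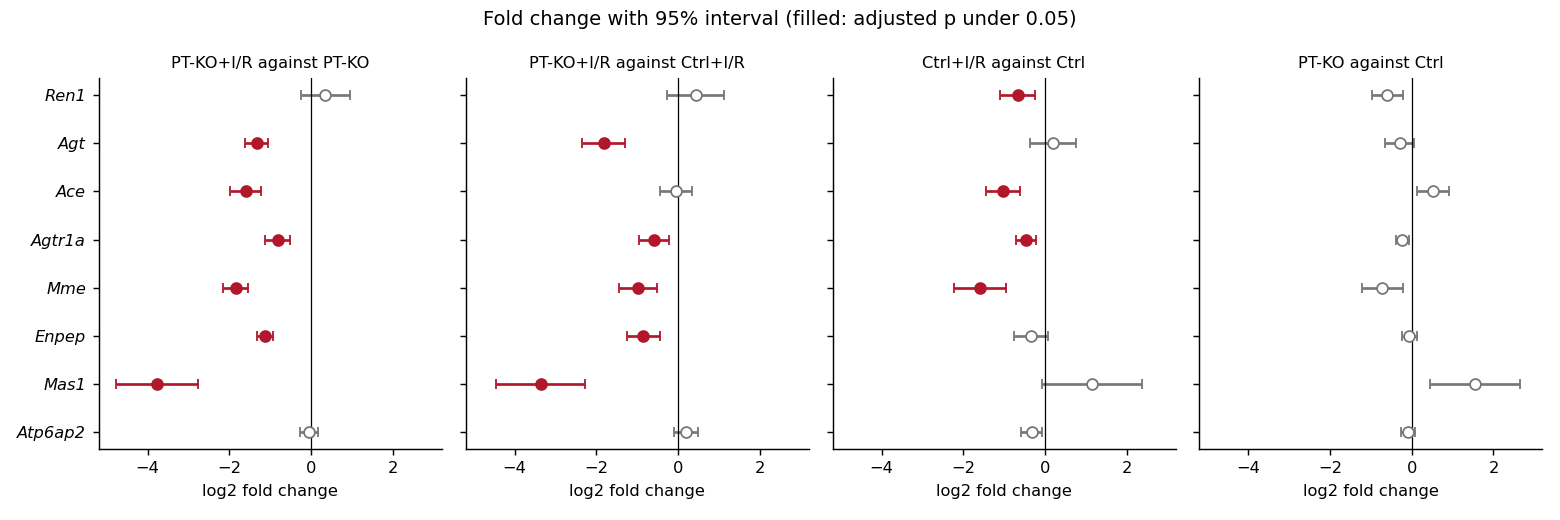
Log2 fold change of each of the 8 genes in the 4 comparisons of 3 against 3 kidneys, with the 95% interval of the edgeR fit before adjustment (bars), filled where the adjusted p is under 0.05. In PT-KO+I/R versus PT-KO, 6 genes are filled, all to the left of 0, and Ren1 and Atp6ap2 are open.

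In PT-KO+I/R versus PT-KO, 6 of the 8 genes fell (Agt, Ace, Agtr1a, Mme, Enpep and Mas1) and 0 rose, where 32.7% of 15155 tested genes were called lower, 32.9% higher and 65.5% in either direction. The 6 of 8 thus stand against a background in which most genes were called, and they include Mas1, whose call is only a description. The same 6 were called in each of the 6 fits that left out 1 library. In PT-KO+I/R versus Ctrl+I/R, 5 of 8 were lower (Agt, Agtr1a, Mme, Enpep and Mas1) against 24.4% of 15281 genes, with 46.9% called in either direction, and 4 or 5 were called when 1 library was left out. In Ctrl+I/R versus Ctrl, 4 of 8 fell (Ren1, Ace, Agtr1a and Mme) against 7.97% of 15567 genes, with 19.4% called in either direction. That count was 0 without Ctrl library 1 or Ctrl+I/R library 1, 1 when Ctrl library 2 was left out, 2 when Ctrl library 3 or Ctrl+I/R library 2 was, and 4 when Ctrl+I/R library 4 was. It was 2 (Ace and Mme) with sex in the model and 2 among the 10 male libraries alone, fits in which Ctrl+I/R is set against 1 male control. The median log2 fold change over all tested genes was -0.011 for Ctrl+I/R versus Ctrl, 0.011 for PT-KO+I/R versus PT-KO, and -0.0049 for the injured genotypes. Scaling by total counts instead of TMM moved the median of all genes to 0.11 in the first of these and to -0.21 in the last.

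In PT-KO versus Ctrl, 0 of the 8 genes and 0 of 15291 tested genes (0%) passed edgeR's adjusted threshold, while 2573 genes had an unadjusted p under 0.05. DESeq2 called 440 genes, 2 of them members (Ren1, log2 fold change -0.58, DESeq2 adjusted p = 0.0276, and Mme, -0.71, DESeq2 adjusted p = 0.0175). PT-KO and Ctrl differ in genotype and, in part, in sex.

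Whether injury acted differently in the 2 genotypes was tested as an interaction over all 12 libraries. In this test 3 of the 8 genes were called, all with a more negative injury response in PT-KO, where 16.4% of 16168 genes were called in that direction, 14.3% in the other and 30.6% in either. They were Agt (log2 difference of the 2 responses -1.52, SE 0.29, edgeR adjusted p = 0.00273), Enpep (-0.78, SE 0.20, edgeR adjusted p = 0.0127) and Mas1 (-4.92, SE 0.74, edgeR adjusted p = 6.49e-04). The Mas1 call rests on 1 to 3 counts in each PT-KO+I/R library and on a filter passed through the other groups, and is a description only. With sex in the model the Ctrl arm rests on 1 male library. The values were then -1.35 for Agt, -4.23 for Mas1 and -0.75 for Enpep, and Enpep lost its call. Ren1 had an interaction of 1.04 (SE 0.38, edgeR adjusted p = 0.0575), opposite in sign to Agt, and passed when Ctrl+I/R library 4, PT-KO library 1 or PT-KO+I/R library 3 was left out. Agtr1a gave -0.35 (SE 0.18, edgeR adjusted p = 0.153), and passed without PT-KO+I/R library 2. Ace (-0.56, edgeR adjusted p = 0.130), Mme (-0.25, edgeR adjusted p = 0.582) and Atp6ap2 (0.29, edgeR adjusted p = 0.147) did not pass. For Mme the value was -0.86 with sex in the model, again on 1 male control.

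**Figure D3:**
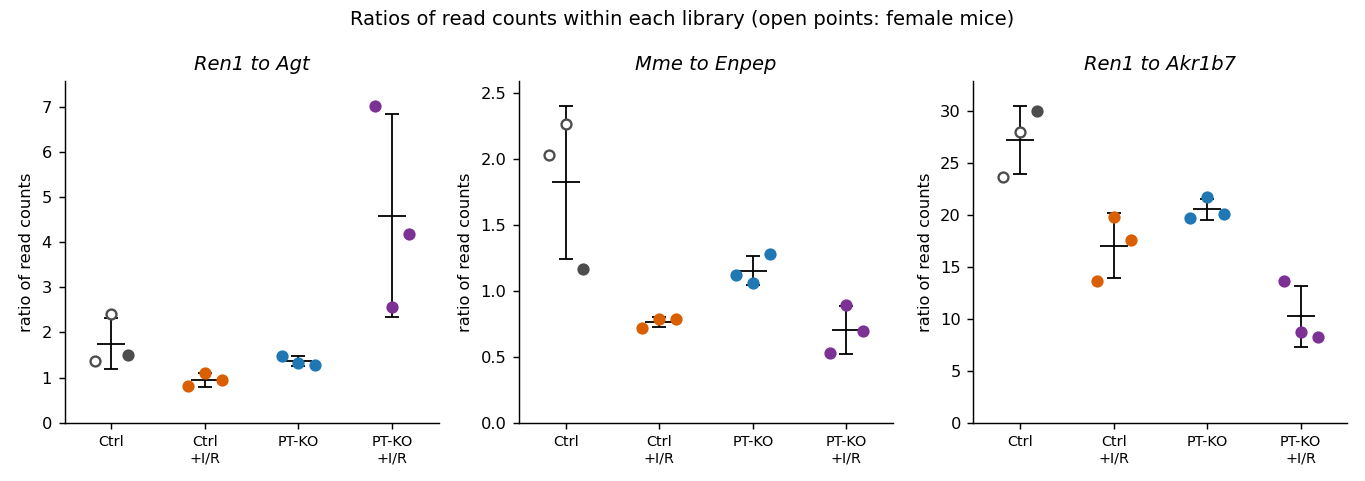
Ratios of the read counts of 2 genes within each library, on linear axes that start at 0, for 3 libraries per group (points; open points are female) with the mean ± SD. The Ren1 to Agt ratio is 2.57 to 7.005 in PT-KO+I/R and at most 2.40 elsewhere.

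Ratios of counts within a library put enzyme and substrate on 1 scale without normalization, and are given as a description. Ren1 to Agt was 1.36, 2.40 and 1.49 in Ctrl, 0.808, 1.10 and 0.937 in Ctrl+I/R and 1.48, 1.33 and 1.27 in PT-KO, but 7.005, 2.57 and 4.17 in PT-KO+I/R. Renin reads thus outnumbered substrate reads most in the injured knockout kidneys. Mme to Enpep was 2.03 and 2.26 in the female Ctrl kidneys, 1.17 in the male Ctrl kidney and 1.12, 1.06 and 1.28 in PT-KO. After injury it was 0.721, 0.786 and 0.789 in Ctrl+I/R and 0.528, 0.890 and 0.694 in PT-KO+I/R.

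Of 15 further genes of the pathway, 9 had enough counts to be tested, and all 9 changed between PT-KO+I/R and PT-KO, where 65.5% of all tested genes were called. The 5 that fell were aminopeptidase N (Anpep, log2 fold change -2.66, edgeR adjusted p = 4.42e-08), the AT1 receptor-associated protein Agtrap (-0.87, 2.10e-05), tissue kallikrein Klk1 (-0.85, 0.00149), cathepsin A (Ctsa, -0.63, 1.23e-04) and prolylcarboxypeptidase (Prcp, -0.35, 0.00619). The 4 that rose were the soluble endopeptidases neurolysin (Nln, 1.03, edgeR adjusted p = 4.38e-06), prolyl endopeptidase (Prep, 0.72, 3.32e-05) and thimet oligopeptidase (Thop1, 0.38, 0.0282), and the membrane aminopeptidase Lnpep (0.31, 0.0415). The median over the 9 was -0.35, against 0.011 over all tested genes. Versus Ctrl+I/R, 3 of the 9 were higher (Nln 0.93, Lnpep 0.56, Prep 0.48), 3 were lower (Anpep -1.98, Agtrap -0.68, Ctsa -0.39) and 3 did not pass, with a median of 0.062. Over all genes 22.5% were called higher and 24.4% lower there. In Ctrl+I/R versus Ctrl only Thop1 passed, and it rose (0.81, edgeR adjusted p = 0.0195), beside 19.4% of all genes called. In PT-KO versus Ctrl 0 passed (0% of all genes). The interaction called Nln (0.84) and Prep (0.49) higher and Anpep (-1.89) and Agtrap (-0.92) lower, 4 of 9 beside 30.6% of all genes.

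Nln, which cleaves small peptides in the cytosol, was at 41.4, 49.7 and 53.0 CPM in Ctrl, 49.4, 61.3 and 54.3 CPM in Ctrl+I/R, 48.1, 55.1 and 50.2 CPM in PT-KO and 101, 103 and 112 CPM in PT-KO+I/R. The PT-KO+I/R kidneys thus lay above every other kidney. The 6 untested genes had at most 8 counts in any library: Agtr1b, Agtr2, Cma1, Cpa3, Ctsg and Mrgprd, of which Ctsg and Mrgprd had 0 in all 12. Cma1, Cpa3 and Ctsg are angiotensin-forming or peptide-trimming proteases of mast cells and other leukocytes. Of the mast cell markers Kit alone was tested, at 21.7 to 24.4 CPM in PT-KO and 11.5 to 15.2 CPM in PT-KO+I/R. It was lower there (-0.79), beside 32.7% of all genes called lower. The other mast cell markers (Cma1, Cpa3, Mcpt4 and Tpsb2) had at most 4 counts in any library, so Kit is not read here as a measure of mast cells.

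**Figure D4:**
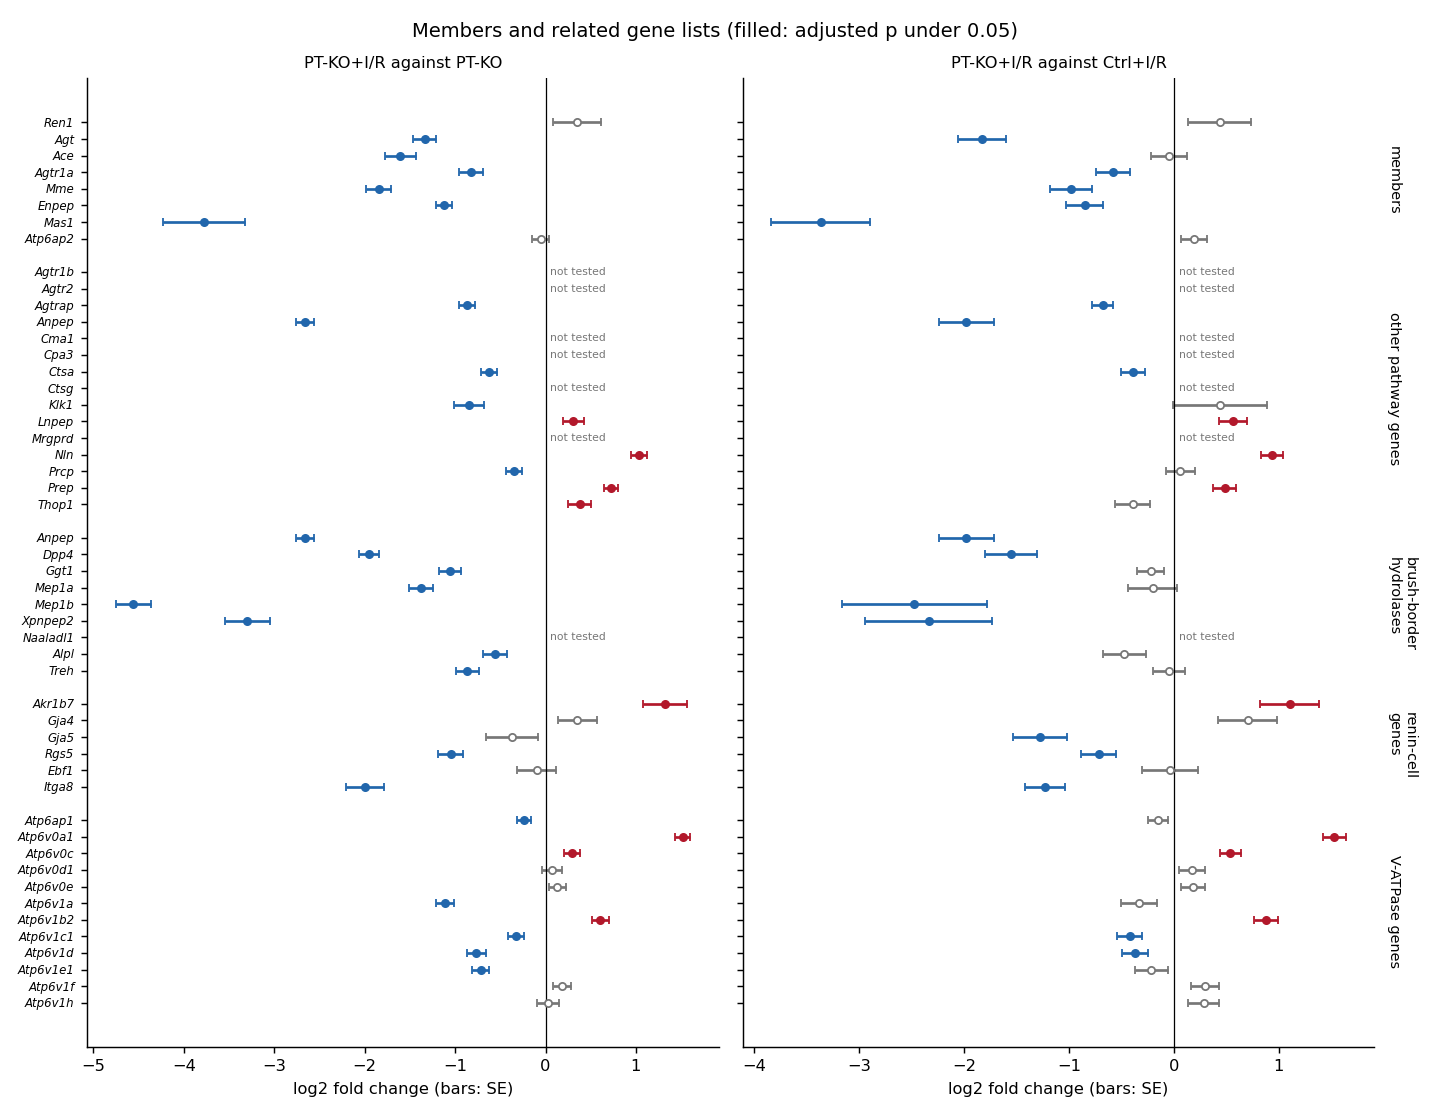
Log2 fold changes with their SE for the 8 genes and for the other pathway genes, brush-border hydrolases, renin-cell genes and V-ATPase genes in PT-KO+I/R versus PT-KO (left) and versus Ctrl+I/R (right), filled where the adjusted p is under 0.05 (blue lower, red higher). Anpep belongs to both the pathway and the hydrolase list, and all 8 tested brush-border hydrolases lie left of 0 in both panels.

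Brush-border hydrolases, a list that shares Anpep with the one above, moved in the same direction as Mme and Enpep. All 8 that were tested fell in PT-KO+I/R versus PT-KO, where 32.7% of all genes were called lower, with a median of -1.67 and the lowest values in meprin beta (Mep1b, -4.56) and aminopeptidase P (Xpnpep2, -3.30). Versus Ctrl+I/R, 4 of 8 were lower (Anpep, Dpp4 -1.55, Mep1b -2.47 and Xpnpep2 -2.33), with a median of -1.01 and 24.4% of all genes called lower. In Ctrl+I/R versus Ctrl only Naaladl1 of 9 was called (-2.01, edgeR adjusted p = 0.0385), while 7.97% of all genes were called lower. All 9 had a negative sign, and the median was -0.75. Naaladl1 had 58 and 39 counts in the female Ctrl kidneys, 24 in the male, and 7, 7 and 16 in Ctrl+I/R. It passed the low-count filter only through Ctrl, where it was higher, so its call is a description and no independent support. Proximal tubule markers fell as well: 10 of 10 were lower in PT-KO+I/R versus PT-KO (median -2.34), 5 of 10 versus Ctrl+I/R (median -0.92) and 5 of 10 in Ctrl+I/R versus Ctrl (median -1.04). Lower proximal tubule markers thus moved with the falls of Agt, Ace, Mme and Enpep in PT-KO+I/R versus PT-KO. In Ctrl+I/R versus Ctrl, Ace and Mme were lower too, but Agt (0.19) and Enpep (-0.33) were not called. Versus Ctrl+I/R, Agt, Mme and Enpep were lower in PT-KO+I/R, but Ace (-0.051) was not called. The part of the markers in these changes was not tested. Markers of the S3 segment, the last part of the proximal tubule, summed to 919 and 826 CPM in the female Ctrl kidneys and to 3076 CPM in the male. That gap came from Acsm3 (2.81 and 4.16 against 1158 CPM), Slc7a13 (2.56 and 4.10 against 928 CPM) and Slc5a8 (175 and 191 against 447 CPM). Slc22a19 and Slc5a10 were instead lower in the male, and Slc22a7 lay between the females. Their sums were 3129 to 4666 CPM in PT-KO, 597 to 1290 CPM in Ctrl+I/R and 537 to 670 CPM in PT-KO+I/R. All 6 S3 markers were lower in PT-KO+I/R versus PT-KO (median -2.91), 1 (Slc5a8) was lower versus Ctrl+I/R, and 3 (Slc22a7, Slc22a19 and Slc5a10) in Ctrl+I/R versus Ctrl. Among the hydrolases, Ggt1, whose promoter drives the Cre, fell by 1.05 on the log2 scale in PT-KO+I/R versus PT-KO and did not pass versus Ctrl+I/R.

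Genes of renin-producing and perivascular cells moved both ways. Of the 6, 1 rose and 2 fell in PT-KO+I/R versus PT-KO, beside 65.5% of all genes called. Versus Ctrl+I/R, 1 was higher and 3 were lower, beside 46.9% of all genes. In Ctrl+I/R versus Ctrl, 1 rose and 1 fell, beside 19.4% of all genes. Akr1b7, an aldo-keto reductase enriched in juxtaglomerular cells, rose in PT-KO+I/R versus PT-KO (log2 fold change 1.32 with SE 0.24, edgeR adjusted p = 8.70e-04) and versus Ctrl+I/R (1.10, SE 0.28, edgeR adjusted p = 0.0137). It stood at 3.57, 3.92 and 3.21 CPM in Ctrl, 4.15, 2.45 and 4.36 CPM in Ctrl+I/R, 4.04, 2.75 and 2.64 CPM in PT-KO and 9.07, 6.14 and 8.58 CPM in PT-KO+I/R, where no kidney overlapped the others. The integrin Itga8 fell in both comparisons (log2 fold change -2.0, edgeR adjusted p = 2.39e-05, and -1.22, edgeR adjusted p = 0.00192), as did Rgs5 of pericytes (-1.05, edgeR adjusted p = 8.34e-05, and -0.72, edgeR adjusted p = 0.00976). The connexin gene Gja5 was lower versus Ctrl+I/R (-1.27, edgeR adjusted p = 0.00555) and higher in Ctrl+I/R versus Ctrl (0.63, edgeR adjusted p = 0.0309), where Itga8 fell (-0.93, edgeR adjusted p = 0.0137). Gja4 and Ebf1 passed in none of these. The 6 genes summed to 104 to 145 CPM in Ctrl, 77.9 to 109 CPM in Ctrl+I/R, 93.1 to 134 CPM in PT-KO and 59.2 to 66.4 CPM in PT-KO+I/R. Ren1 counts per Akr1b7 count were 23.6, 28.0 and 29.97 in Ctrl, 19.7, 21.7 and 20.1 in PT-KO, 13.6, 19.8 and 17.6 in Ctrl+I/R, and 13.6, 8.75 and 8.29 in PT-KO+I/R.

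Subunits of the vacuolar proton pump, the complex to which Atp6ap2 belongs, moved both ways. In PT-KO+I/R versus PT-KO, 3 of 12 rose (Atp6v0a1 1.52, Atp6v1b2 0.61, Atp6v0c 0.29), 5 fell (Atp6v1a -1.11, Atp6v1d -0.77, Atp6v1e1 -0.72, Atp6v1c1 -0.32, Atp6ap1 -0.24) and 4 did not pass, with a median of 0.049. The 8 of 12 called are close to the 65.5% of all tested genes called there. Versus Ctrl+I/R the same 3 were higher (1.53, 0.88 and 0.54) and 2 were lower (Atp6v1c1 -0.42, Atp6v1d -0.37), where 46.9% of all genes were called. Atp6v0a1, a membrane subunit, was at 52.7, 44.9 and 49.5 CPM in Ctrl and 53.4, 64.0 and 54.1 CPM in Ctrl+I/R. PT-KO kidneys had 59.6, 56.5 and 56.9 CPM, whereas PT-KO+I/R kidneys had 157, 175 and 165 CPM, above every other kidney. In Ctrl+I/R versus Ctrl, 0 of the 12 passed, beside 19.4% of all genes called there.

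Other cell markers moved with the groups too, and their part in the results above was not tested. Their calls in PT-KO+I/R versus PT-KO stand beside 32.9% of all tested genes called higher, 32.7% lower and 65.5% in either direction. Summed markers of vascular smooth muscle and pericytes were at 120 to 162 CPM in Ctrl, 110 to 178 CPM in PT-KO, 258 to 330 CPM in Ctrl+I/R and 198 to 312 CPM in PT-KO+I/R. Of these 6 genes, Acta2, Tagln and Pdgfrb were called higher in PT-KO+I/R versus PT-KO and Myh11 lower. Podocyte markers summed to 487 to 660 CPM in Ctrl, 392 to 502 CPM in PT-KO, 375 to 416 CPM in Ctrl+I/R and 373 to 429 CPM in PT-KO+I/R. Nphs1 and Ptpro were called lower in PT-KO+I/R versus PT-KO, the other 4 podocyte genes not. All 6 genes of either list were detected in every library. Injury genes (Havcr1, Lcn2, Krt20, Sox9 and Vcam1) summed to 12.6 to 23.6 CPM in Ctrl and 8.89 to 12.6 CPM in PT-KO, and to 571 to 2669 CPM in Ctrl+I/R and 4850 to 6364 CPM in PT-KO+I/R. Within Ctrl+I/R, library 2 had the highest injury sum and the lowest Agt, Ren1, Ace, Agtr1a, Mme, Enpep and Atp6ap2 of its group, but the highest Mas1 (1.67 CPM). Hepatocyte markers summed to 74.3 to 168 CPM in Ctrl, 124 to 237 CPM in PT-KO, 115 to 256 CPM in Ctrl+I/R and 535 to 1303 CPM in PT-KO+I/R. Most of the last sum was the acute-phase gene Fgb, at 451, 1219 and 593 CPM there and at 0.646 to 1.29 CPM in PT-KO. Versus PT-KO, 2 of these 5 markers were called higher (Fgb and Alb) and 3 lower (Ttr, Apoa2 and Serpina1c), with a median log2 fold change of -0.98. Of the adipocyte markers, Adipoq (5.83 CPM), Plin1 (5.93 CPM) and Cidec (4.72 CPM) were present in Ctrl library 1, and Adipoq and Plin1 were at 0 in the other Ctrl libraries. Nearly all of the adipocyte sum in PT-KO+I/R was Cidec (6.93, 9.48 and 6.77 CPM), while Adipoq, Plin1 and Lep were at 0 to 0.801 CPM.

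Neutrophil markers summed to 0.734 to 1.66 CPM in Ctrl, 0.614 to 1.83 CPM in PT-KO, 6.58 to 30.1 CPM in Ctrl+I/R and 50.4 to 77.6 CPM in PT-KO+I/R. All 4 tested of these 5 (S100a8, S100a9, Retnlg and Cxcr2) were higher in PT-KO+I/R versus PT-KO. Macrophage markers summed to 72.4 to 94.4 CPM in Ctrl, 79.1 to 79.5 CPM in PT-KO, 81.2 to 133 CPM in Ctrl+I/R and 53.7 to 62.2 CPM in PT-KO+I/R, with 1 of 6 higher (Cd68) and 3 lower (Adgre1, Csf1r and C1qb) in that comparison, about the 65.5% of all genes called in it. The other nephron segments had lower sums in PT-KO+I/R than in any sham kidney. Thick ascending limb markers summed to 4236 to 5764 CPM in Ctrl, 4403 to 5165 CPM in PT-KO, 1371 to 3610 CPM in Ctrl+I/R and 1911 to 2353 CPM in PT-KO+I/R, where all 3 fell from PT-KO. Distal convoluted tubule markers summed to 958 to 1240 CPM in Ctrl, 833 to 874 CPM in PT-KO, 286 to 485 CPM in Ctrl+I/R and 256 to 309 CPM in PT-KO+I/R, with 2 of 3 lower and 1 higher (Trpm6) than in PT-KO. Collecting duct markers summed to 395 to 437 CPM in Ctrl, 329 to 442 CPM in PT-KO, 90.8 to 333 CPM in Ctrl+I/R and 84.6 to 146 CPM in PT-KO+I/R, with 4 of 5 lower than in PT-KO.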

How the data were processed

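Kidney RNA of 12 mice (Ctrl, Ctrl+I/R, PT-KO and PT-KO+I/R, 3 libraries each) had been extracted with TRIzol and sequenced on an Illumina platform. The authors deposited 1 table of raw read counts per gene (55487 Ensembl identifiers), neither normalised nor filtered. Their processing notes list HISAT2 2.0.4 and mm10. The counting program, annotation and strand setting are not given in the sources used here.

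After filterByExpr and TMM, the quasi-likelihood test of edgeR 4.0.16 in R 4.3.3 was fitted to the 6 libraries compared, or to all 12 for the interaction, with Benjamini-Hochberg adjustment over all tested genes and a threshold of 0.05. Printed CPM and RPKM values used TMM over the 12 libraries and GENCODE M21 exon lengths. The 95% intervals of fold changes are those of single tests. The p-values measure the spread between these libraries, which may in part be technical. The scripts were tested on simulated counts.

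Alternatives were RLE factors, total counts, DESeq2 1.42.0, no low-count filter, 1 fit to all libraries, sex as a term, the replicate number as a block and leaving out each library. A fit to the 10 male libraries was added after the data had been seen.

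The genes and lists were chosen with earlier results of these data known. By the rule for naming, all 8 genes are named and list genes past the test may be. For each of the 8 with a mean of at least 1 CPM, the 3 genes with the most similar profile over the 12 libraries are named too. Nln, Akr1b7 and Atp6v0a1 were picked for printing per library after their values were seen. Cell markers are named to show what their sums hold, also after their values were seen. 1 listed gene is not reported here.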

Additional observations from a re-analysis of the deposited data

Results flagged for a closer look

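For 3 of the 8 genes the response to I/R was called different between the genotypes, beside 30.6% of all 16168 tested genes. The test was of the difference itself, the interaction term of edgeR over 12 libraries. The log2 response in PT-KO minus that in controls was -1.52 for Agt, -0.78 for Enpep and -4.92 for Mas1. Agt differed by -1.34 (edgeR adjusted p = 1.14e-05) with injury in PT-KO and by 0.19 (edgeR adjusted p = 0.589) in controls, and it was lower in 3 of 3 PT-KO+I/R kidneys than in any Ctrl+I/R kidney. Enpep differed by -1.13 in PT-KO and -0.33 in controls. With sex in the model, where the Ctrl arm rests on 1 male library, its interaction was -0.75 and lost its call. Mas1 differed by -3.78 in PT-KO and 1.15 in controls, on 1 to 3 counts per PT-KO+I/R library, and it passed the low-count filter only through the other groups, so its call is a description. The Ctrl arm of each interaction holds 2 female kidneys.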

How the results depend on the processing

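Counts of called genes among the 8 depended on the setting in every comparison. In the main fits 19.4% of all genes were called in Ctrl+I/R versus Ctrl and 0% in PT-KO versus Ctrl. The share was 65.5% in PT-KO+I/R versus PT-KO, 46.9% versus Ctrl+I/R and 30.6% in the interaction. Calls over all genes changed with the setting too, and most of those counts are not printed here. The counts below thus do not separate the 8 genes from all genes. In Ctrl+I/R versus Ctrl, 4 were called, and 2 with total counts, 2 with sex as a term and 2 among the 10 male libraries. Leaving out 1 library gave 0 to 4. In PT-KO versus Ctrl, 0 were called, and 2 with DESeq2, 2 without the low-count filter (388 of all genes) and 0 to 2 without 1 library. PT-KO+I/R versus PT-KO gave 6 to 6 and PT-KO+I/R versus Ctrl+I/R gave 4 to 5 without 1 library, and the interaction 3 to 4. DESeq2 or no filter gave 4 in the interaction (Ren1 added), and sex as a term or the male libraries gave 2 (Enpep lost).

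Direction turned for some uncalled log2 differences, and the cause was not tested. Agt in Ctrl+I/R versus Ctrl was -0.00477 among the male libraries and ran from -0.00184 to 0.43 without 1 library. Without 1 library, the range in PT-KO+I/R versus PT-KO was -0.037 to 0.60 for Ren1 and -0.14 to 0.028 for Atp6ap2, and for Ace it was -0.18 to 0.093 between the injured genotypes. Atp6ap2 in that comparison was -0.0077 with total counts, by which the median of all genes also moved down.

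Replicate numbers showed little pairing of the libraries. Deviations of 12 same-numbered pairs had correlations of -0.205 to 0.237 (median -0.0286), 1 of them over 0.1. Of 10 numbered libraries, 2 correlated best with their own number. With 3 libraries per group this check cannot exclude a pairing. With the number as a block, 2 of the 8 were called in PT-KO+I/R versus Ctrl+I/R (1683 of all genes against 7169), where Agtr1a (adjusted p = 0.214), Enpep (0.128) and Mas1 (0.0622) did not pass by edgeR. PT-KO versus Ctrl gave 1 (Mme) under the block, and the interaction 2. PT-KO+I/R versus PT-KO gave 7, with Ren1 at 0.74 (adjusted p = 0.00622 by edgeR) and Atp6ap2 at 0.038. PT-KO+I/R shares only the numbers 2 and 4 with PT-KO and with Ctrl+I/R. In those block fits PT-KO+I/R library 3 and library 1 of the other group stand alone and add nothing to the difference. The Ren1 value of 0.74 thus rests on 2 kidneys per group, without the highest PT-KO (79.7 CPM) and lowest PT-KO+I/R kidney (53.8 CPM). In PT-KO versus Ctrl the shared numbers are 1 and 2, both female in Ctrl.

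Over single genes and alternatives, 545 values kept direction and side of the threshold, 32 lost and 15 gained the threshold, and 8 turned direction. Depth limits Mas1, at 1 to 3 counts in PT-KO+I/R. For the other 7 genes, 3 kidneys per group set the precision.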

Other observations

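The genes whose log2 CPM followed each member most closely over the 12 libraries were listed among 14319 genes as a description. The 12 libraries fall into 4 groups, and Pearson's r was not computed within them. Agt was followed by Kcnab2 (r = 0.96), Ankrd45 (0.96) and Cldn2 (0.96), the latter the pore-forming claudin of the proximal tubule. Enpep was followed by Nepn, Car12 and AI314278 (0.99 each). For Mme the nearest were Itpr2 (0.99), Hsd17b14 (0.98) and Zkscan3 (0.98), and for Agtr1a Dlec1 (0.99), Rad9b (0.99) and Timm21 (0.98). For Ace they were 9530068E07Rik (0.98), Os9 (0.97) and Cdadc1 (0.97). Atp6ap2 lay nearest to Jade1, Decr2 and Gpx3 (0.93 each). Ren1 had the weakest companions, with Peg3 (0.87), R3hdm4 (0.86) and Gm28959 (0.82). Mas1 was below 1 CPM on average and was not ranked.

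Among the members themselves, Agtr1a and Enpep had r = 0.93, Mme and Enpep 0.89, and Agtr1a and Mme 0.89. Next came Agt and Enpep at 0.87, Agt and Agtr1a at 0.80, and Ren1 and Atp6ap2 at 0.76. Ren1 and its substrate Agt had r = -0.063 over the same 12 libraries.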
